A study of Homo sapiens with 4 samples.

Results

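The genes described here are 31 transcripts of the NRF2 programme: enzymes and carriers of the antioxidant response, aldo-keto reductases, enzymes of the pentose phosphate pathway, and iron genes. They were taken by gene symbol as known NRF2 targets, by a rule that uses no measured value but was set with earlier results of these data known. All 31 were among the 15037 genes of the count table, and all 31 passed the filter on low counts. The cells were A549, a cultured line of epithelial origin from a human lung carcinoma, and their polyadenylated RNA was sequenced in 4 libraries. In 2 libraries PSME4, which encodes an activator of the proteasome, had been knocked down (PSME4 KD), and in the other 2, labelled as a knockdown of RFP, it had not (control KD). The labels name no treatment, time or knockdown reagent, and all 4 libraries come from the same line.

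NRF2, encoded by NFE2L2, is the transcription factor that switches on cell defence against oxidants and electrophiles. In unstressed cells the adaptor KEAP1 hands it to a cullin ubiquitin ligase and the proteasome destroys it. When KEAP1 fails, NRF2 pairs with a small MAF protein on DNA sequences called antioxidant response elements and drives its targets. A549 cells are known to carry a loss-of-function mutation in KEAP1, so the programme is switched on without any stress. The files hold no measurement of the NRF2 protein or of KEAP1 function.

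The antioxidant response element has the core TGACNNNGC, where N is any base, and it was searched on both strands of the promoter windows given by RefSeq on GRCh38.p14. Each window runs from 250 bases before a gene's start to 50 bases after it. Windows were found for 22 of the 31 genes, 27 windows in all, since some genes have several. The core occurred in 10 of the 27 windows (37.0%) and in 13.3% of all 35116 windows in the table. Counted by gene, it was found in 9 of 22 (40.9%), beside 19.5% of the tested genes that have a window. The 9 genes with a match were GCLM, GPX2, TXNRD1, CBR1, PGD, ME1, EPHX1, CYP4F11 and PIR. A match describes letters only and is not evidence of binding, and many known elements lie outside so short a window. The windows printed here are those of PIR and TKT, the called genes that have one, and of ME1, TXNRD1 and GCLM, well-known targets with a match that were not called. They run 5′ to 3′ along the gene's own strand, with every match in capitals.
PIR, chrX:15493284-15493583, minus strand: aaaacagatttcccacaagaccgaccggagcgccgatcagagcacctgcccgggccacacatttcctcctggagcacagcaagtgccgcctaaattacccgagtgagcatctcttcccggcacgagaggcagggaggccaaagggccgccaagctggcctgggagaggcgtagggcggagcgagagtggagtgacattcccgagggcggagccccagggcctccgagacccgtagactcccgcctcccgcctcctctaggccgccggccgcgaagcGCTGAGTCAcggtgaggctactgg
ME1, chr6:83431002-83431301, minus strand: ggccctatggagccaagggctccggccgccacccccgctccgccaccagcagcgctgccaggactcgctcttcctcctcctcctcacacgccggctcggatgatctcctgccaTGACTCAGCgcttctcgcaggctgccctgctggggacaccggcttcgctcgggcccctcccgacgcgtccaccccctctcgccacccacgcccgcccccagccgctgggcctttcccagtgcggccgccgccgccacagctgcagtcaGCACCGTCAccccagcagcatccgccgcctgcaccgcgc
TXNRD1, chr12:104215529-104215828, plus strand: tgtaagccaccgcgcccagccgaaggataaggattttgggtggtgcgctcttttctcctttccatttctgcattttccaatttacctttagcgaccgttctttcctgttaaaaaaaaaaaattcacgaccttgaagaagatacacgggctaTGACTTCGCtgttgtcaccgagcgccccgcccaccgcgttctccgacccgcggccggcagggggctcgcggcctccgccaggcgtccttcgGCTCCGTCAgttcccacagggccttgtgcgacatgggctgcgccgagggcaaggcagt
GCLM, chr1:93909381-93909680, minus strand: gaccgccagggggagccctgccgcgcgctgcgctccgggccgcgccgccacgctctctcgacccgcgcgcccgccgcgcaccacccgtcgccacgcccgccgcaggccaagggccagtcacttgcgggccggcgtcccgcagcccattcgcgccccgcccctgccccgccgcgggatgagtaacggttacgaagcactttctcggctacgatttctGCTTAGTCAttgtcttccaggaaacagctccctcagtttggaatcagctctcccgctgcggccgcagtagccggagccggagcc
TKT, chr3:53255973-53256272, minus strand: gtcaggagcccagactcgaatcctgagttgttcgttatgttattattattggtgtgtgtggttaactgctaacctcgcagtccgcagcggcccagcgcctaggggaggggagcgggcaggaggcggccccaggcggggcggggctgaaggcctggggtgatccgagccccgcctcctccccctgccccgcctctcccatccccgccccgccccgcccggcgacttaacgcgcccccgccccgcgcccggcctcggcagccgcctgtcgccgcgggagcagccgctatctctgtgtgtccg
PIR and ME1 held the same 9 bases, TGACTCAGC, read on the reverse strand in PIR (bases 277 to 285 of the window, just after the start) and on the forward strand in ME1 (bases 114 to 122), which had a second match at bases 262 to 270. These letters also contain TGACTCA, the site of the AP-1 factors. TXNRD1 had 2 matches in this window, at bases 152 to 160 and 243 to 251, and GCLM had 1 at bases 217 to 225. A second window of TXNRD1, not printed here, held a further match at bases 149 to 157. TKT had none, so its window stands in lower case throughout. Of the 9 genes with a match 1 was lower after PSME4 knockdown and none was higher by the test used below. Of the 13 genes with a window and no match 1 was higher and none lower. Over all genes tested 4.56% were higher and 6.0% lower, so neither count stands out.

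Depth was between 11766371 and 15208588 counts per library, with the smaller totals in control KD. A fold change divides PSME4 KD by control KD and is given as log2 with a standard error (SE). Levels are in CPM, a gene's share of the counts of its library, scaled between libraries by TMM. A gene is called changed where edgeR's quasi-likelihood test gave a Benjamini-Hochberg adjusted p under 0.05 over all 13497 genes tested. PSME4 itself was at 158 and 180 CPM in the control libraries and at 75.3 and 85.1 CPM after its knockdown (log2 fold change −1.08, SE 0.20, adjusted p = 0.000855, edgeR). That call held with PSME4 KD 2 left out and was lost with control KD 1 left out (−1.17), and likewise for control KD 2 (−0.97) and PSME4 KD 1 (−0.99). No label says that a group's libraries came from separate cultures, so p-values here reflect only how far these libraries spread, which may be technical. The epithelial markers KRT7, KRT8, KRT18 and CDH1 had group means between 215 and 3604 CPM, and the other 2 of that list were low, EPCAM at 5.78 and 7.32 CPM and KRT19 at 3.36 and 2.43 CPM in control KD and PSME4 KD. Of 5 alveolar genes ABCA3 was at 8.91 and 5.93 CPM in the control libraries against 10.57 and 10.43 CPM after knockdown and did not pass, while SFTPA1, SFTPB, SFTPC and NKX2-1 had no row in the table and were not analysed here. None of 4 endothelial markers had a row. Summed fibroblast markers, of which 3 of 6 had a row and COL1A2, COL3A1 and DCN had none, were at 17.2 and 21.2 CPM in the control libraries against 26.4 and 28.6 CPM after knockdown. Within that sum COL1A1 was called higher (log2 fold change 0.73), PDGFRA was called lower (−1.34) and LUM did not pass. Summed leukocyte markers, also with 3 of 6 in the table and without PTPRC, were at 33.8 and 29.1 CPM against 39.3 and 39.4 CPM, and the part of either in the results was not tested. In bulk RNA, fewer cells that express a gene and less RNA per cell cannot be told apart.

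The NRF2 programme as a whole did not move one way. TKT, the transketolase of the pentose phosphate pathway, and TRIM16L, a relative of the ubiquitin ligase TRIM16, rose, PIR, which encodes the nuclear protein pirin, fell, and 28 of the 31 genes did not pass the test. The 3 calls are 9.68% of the genes, beside 10.6% of all genes tested. The 2 increases and 1 decrease stand beside backgrounds of 4.56% called higher and 6.0% called lower. The median log2 fold change over the 31 genes was 0.07, beside −0.0021 over all genes tested, with 17 values above 0 and 14 below. Absolute log2 fold changes reached 0.5 in 7 of the 31 genes (22.6%), beside 28.98% of all genes tested. No library of one group fell within the range of the other in 19 of the 31 genes (61.3%), 12 higher and 7 lower in PSME4 KD, beside 55.0% of all genes tested. DESeq2 called 3 of the 31 higher (TKT, TRIM16L and AKR1C1) and 1 lower (PIR), beside 9.54% of its 11538 tested genes in either direction, 4.09% higher and 5.45% lower.

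**Figure D1:**
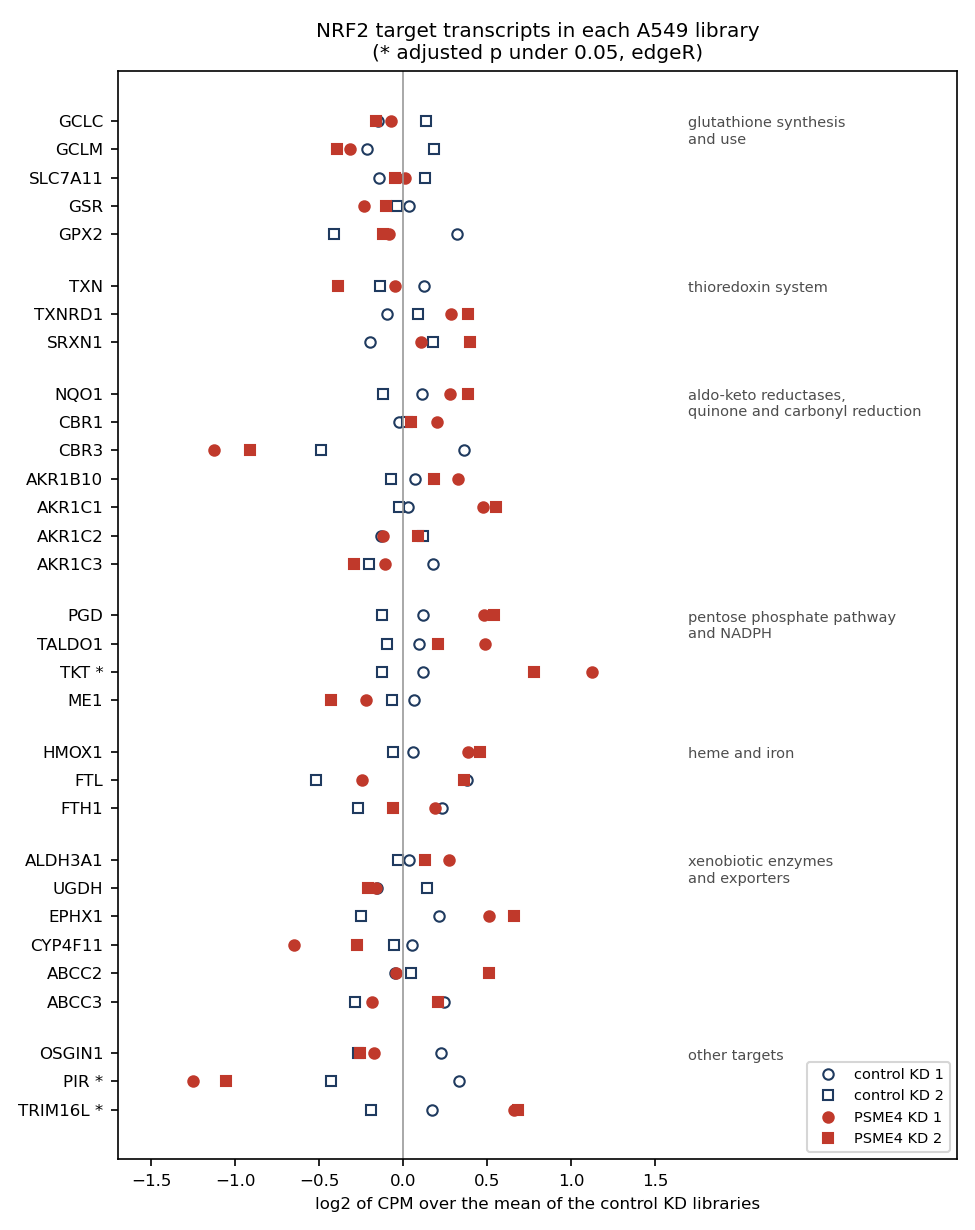
Each NRF2 target in each library, as log2 of its CPM over the mean of the control KD libraries (horizontal axis), grouped by role. Open symbols are control KD, filled symbols PSME4 KD, circles replicate 1 and squares replicate 2. The filled symbols lie to the right for TKT and TRIM16L, to the left for PIR, and among or close to the open ones for most other genes.

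Most of these transcripts were abundant. The median control KD level of the 31 genes was 394 CPM, beside 20.3 CPM over all genes tested. Of the 26 with a mean of at least 100 CPM 2 were called, while over all 2036 genes at that level the share called was 14.2%. The 31 genes held 4.45% and 3.52% of all counts in control KD 1 and 2, and 4.24% and 4.64% in PSME4 KD 1 and 2. The difference between group means, 0.456 percentage points, had a two-sided exact permutation p of 0.667, and 4 libraries allow no p under 0.333. Without the ferritin genes FTL and FTH1 the shares were 2.71% and 2.51% in control KD and 2.94% and 2.93% in PSME4 KD, groups that do not overlap (exact permutation p = 0.333).

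**Figure D2:**
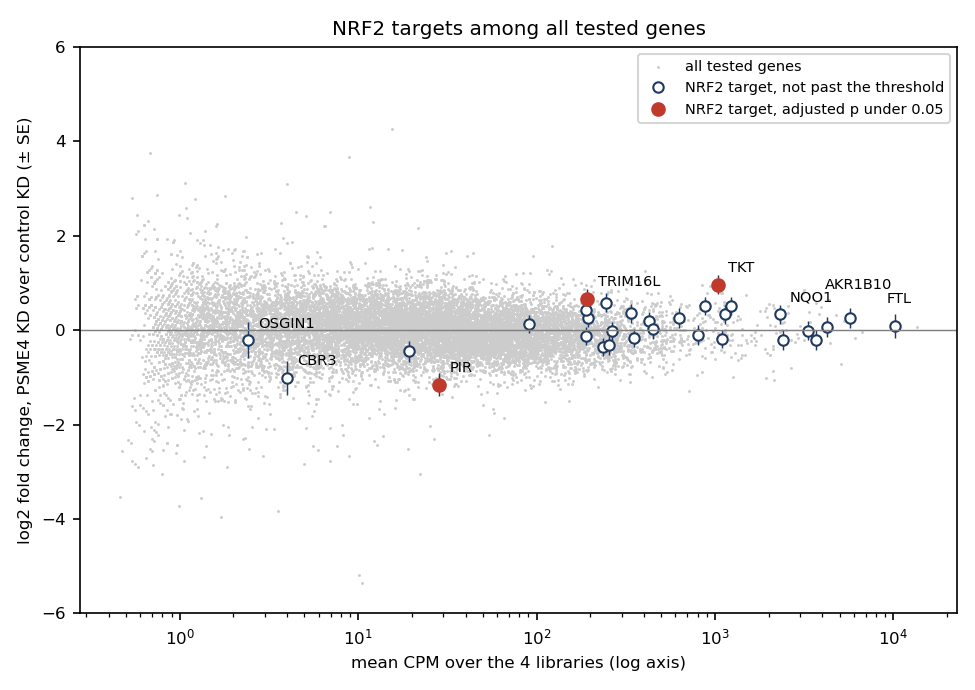
Log2 fold change of PSME4 KD over control KD (vertical axis, bars ± SE) against mean CPM over the 4 libraries (log axis) for all 13497 genes tested (grey) and the 31 NRF2 targets (circles, filled where called). The NRF2 targets sit mostly to the right of the cloud, from OSGIN1 at 2.41 CPM to FTL at 10170 CPM, and most lie close to 0.

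PIR had the largest decrease of the 31 genes. PIR encodes pirin, an iron-binding nuclear protein, and it was at 49.5 CPM in control KD 1, 29.1 CPM in control KD 2, 16.5 CPM in PSME4 KD 1 and 18.9 CPM in PSME4 KD 2. Both PSME4 KD libraries lay below both control KD libraries, but control KD 1 was well above control KD 2. PIR fell 2.22-fold (log2 fold change −1.15, SE 0.24, adjusted p = 0.00297, edgeR). The value was −0.72 without control KD 1 (adjusted p = 0.123, edgeR) and −1.05 without PSME4 KD 1 (adjusted p = 0.206, edgeR), neither past the threshold, while the call held without either of the other libraries. PIR lies at positions 15384799 to 15493333 of chromosome X on GRCh38 and overlaps the read-through gene PIR-FIGF. No source says how reads that fit both were assigned, or whether reads were counted by strand.

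TRIM16L stood at 167 CPM in control KD 1, 130 CPM in control KD 2, 234 CPM in PSME4 KD 1 and 238 CPM in PSME4 KD 2. The PSME4 KD libraries were almost level with each other and above both control KD libraries. TRIM16L rose 1.59-fold (log2 fold change 0.67, SE 0.20, adjusted p = 0.0282, edgeR), a call that was lost whichever library was left out, with values from 0.51 to 0.86 (smallest adjusted p = 0.0928, edgeR). TRIM16L, at positions 18697998 to 18736112 of chromosome 17, is uncertain as a gene of its own, because 54.9% of the 50-base windows of its coding sequence also occur in TRIM16. TRIM16, an ubiquitin ligase that is itself counted as an NRF2 target and was picked out here for this overlap after its values were seen, was at 99.6 and 75.5 CPM in control KD and 138 and 127 CPM in PSME4 KD. Its log2 fold change was 0.60 (SE 0.20, adjusted p = 0.0502, edgeR), just short of the threshold.

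The pentose phosphate pathway makes NADPH in its oxidative branch and shuffles sugar phosphates in its other branch. TKT, which moves carbon units between those sugars, stood at 762 CPM in control KD 1, 641 CPM in control KD 2, 1528 CPM in PSME4 KD 1 and 1202 CPM in PSME4 KD 2. Both PSME4 KD libraries stood far above both control KD libraries. TKT rose 1.95-fold (log2 fold change 0.96, SE 0.20, adjusted p = 0.00340, edgeR), the largest increase among the 31 genes. Its value was 1.09 without control KD 1, 0.85 without control KD 2 and 0.78 without PSME4 KD 1, and it passed the threshold in none of these 3 fits (adjusted p = 0.0994, 0.116 and 0.192, edgeR), while the call held without PSME4 KD 2 (1.15). TKT spans positions 53224712 to 53256022 of chromosome 3 on GRCh38 and overlaps no other RefSeq gene.

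PGD and TALDO1, the other enzymes of that pathway among the 31, lay on the same side as TKT but did not pass. PGD, the dehydrogenase that yields NADPH and ribulose phosphate, was at 1095 and 923 CPM in control KD and 1410 and 1466 CPM in PSME4 KD (log2 fold change 0.51, SE 0.20, adjusted p = 0.0947, edgeR). TALDO1, the transaldolase that works beside transketolase, was at 315 and 276 CPM in control KD and 414 and 341 CPM in PSME4 KD (0.36, SE 0.19). In both genes the groups did not overlap. ME1, the cytosolic malic enzyme that makes NADPH by another route, lay on the opposite side, at 295 and 268 CPM in control KD and 241 and 209 CPM in PSME4 KD (−0.32, SE 0.19). TKT, PGD, TALDO1 and ME1 together held 0.242% and 0.208% of all counts in control KD 1 and 2 and 0.360% and 0.330% in PSME4 KD 1 and 2, with no overlap between groups (exact permutation p = 0.333, the smallest possible).

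Of 22 tested genes from a wider list of NADPH and pentose phosphate enzymes, none passed by edgeR, DESeq2 or limma voom, and 3 reached an edgeR p under 0.05 before adjustment, beside 26.2% of all genes tested. Among the smallest p-values of the list were those of the mitochondrial transhydrogenase NNT (0.49, SE 0.21), the lactonase PGLS (0.50, SE 0.24) and the folate enzyme MTHFD1 (−0.39, SE 0.19). After a correction for GC content NNT passed (0.72, adjusted p = 0.0115, edgeR). PGLS ranged from 0.22 without control KD 2 to 0.88 without control KD 1.

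**Figure D3:**
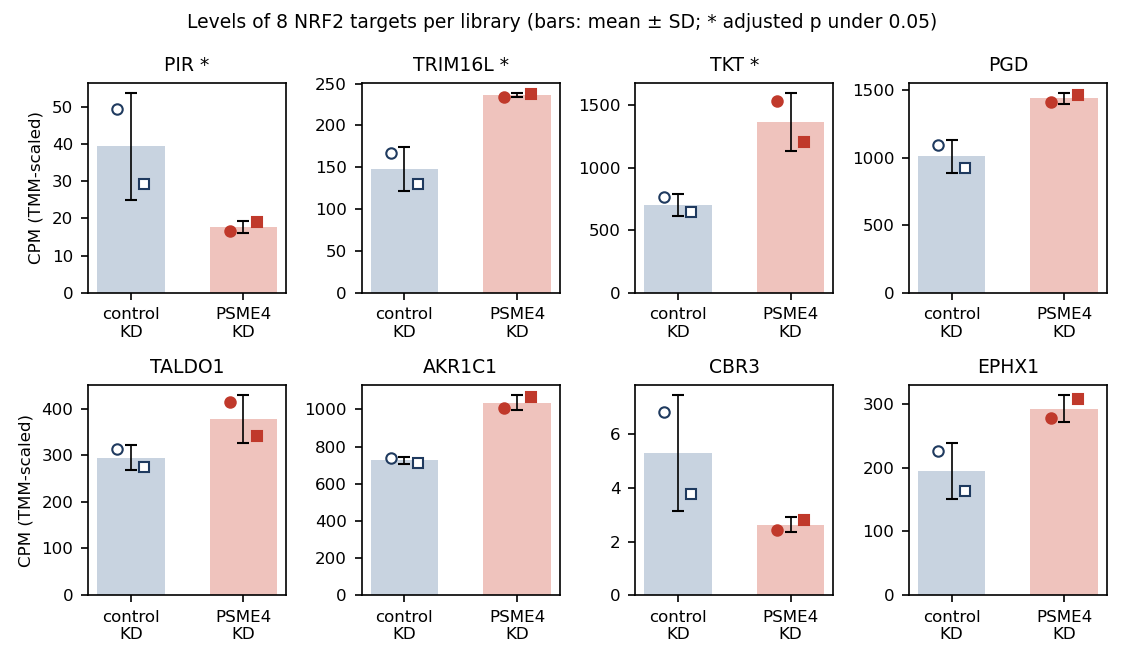
CPM (vertical axes, from 0) of 8 NRF2 targets in control KD (blue) and PSME4 KD (red). Bars are means ± SD over 2 libraries, circles replicate 1 and squares replicate 2, and asterisks mark called genes. In PIR, TRIM16L, PGD, CBR3 and EPHX1 the 2 control KD libraries differ from each other by more than the 2 PSME4 KD libraries do. In TKT, TALDO1 and AKR1C1 the reverse holds.

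Genes of glutathione synthesis and use, the main thiol buffer of the cell, gave no call among the 5 NRF2 targets. That is few genes to set beside the 10.6% called of all genes tested. SLC7A11, the cystine importer, was at 241 and 290 CPM in control KD and 268 and 256 CPM in PSME4 KD, so both PSME4 KD libraries lay between the control KD libraries (log2 fold change −0.02, SE 0.19). GCLC, the catalytic subunit of the ligase that starts glutathione synthesis, was at 178 and 217 CPM in control KD and 188 and 176 CPM in PSME4 KD (−0.12, SE 0.19). GCLM, the modifier subunit of that ligase, was at 228 and 302 CPM in control KD and 212 and 201 CPM in PSME4 KD (−0.36, SE 0.20). The groups overlapped in GCLC and SLC7A11 but not in GCLM, which moved to −0.55 when control KD 1 was left out and to −0.14 when control KD 2 was. GSR, which regenerates reduced glutathione, was at 380 and 361 CPM in control KD and 315 and 345 CPM in PSME4 KD (−0.17, SE 0.19). GSR lies on chromosome 8, whose 459 tested genes had a median of −0.36. GPX2, an epithelial glutathione peroxidase, was at 1034 and 622 CPM in control KD, a wider gap than that between the groups, and at 779 and 761 CPM in PSME4 KD (−0.10, SE 0.22), and it changed sign between the fits without control KD 1 (0.31) and without control KD 2 (−0.42).

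Some glutathione genes outside the 31 passed. Of 33 tested genes from a list of glutathione synthesis, recycling and transferase genes, 6 rose, 3 fell and 24 did not pass, so that 27.3% were called beside 10.6% of all genes tested. GSTP1, the main glutathione transferase of many epithelial cancers, was at 185 and 190 CPM in control KD and 362 and 314 CPM in PSME4 KD, and rose by 0.85 on the log2 scale (SE 0.19, adjusted p = 0.00595, edgeR). The peroxidase GPX1 was at 23.8 and 17.0 CPM in control KD and 41.1 and 39.0 CPM in PSME4 KD (0.97, SE 0.22). GPX4, the peroxidase that reduces lipid peroxides and guards against ferroptosis, was at 77.3 and 80.0 CPM in control KD and 163 and 111 CPM in PSME4 KD (0.80, SE 0.21). The transferase GSTM2 fell by 1.44 (SE 0.40), from 79 counts over both control libraries to 38 over both deeper PSME4 KD libraries, and it has close paralogs that can share reads. After the GC correction 4 genes of the list were higher and 1 was lower, beside 9.35% of all genes in either direction, and GPX4 did not pass (0.56). In the fits with 1 library left out, none of these 4 genes passed except GSTP1, GPX1 and GPX4 without PSME4 KD 2, and GPX4 was at 0.50 without PSME4 KD 1.

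The thioredoxin system, which reduces protein disulphides and peroxiredoxins, gave no call among its 3 NRF2 targets, beside 10.6% of all genes tested. TXNRD1, the cytosolic thioredoxin reductase, was at 946 and 1077 CPM in control KD and 1231 and 1323 CPM in PSME4 KD, without overlap (log2 fold change 0.34, SE 0.20). TXN, thioredoxin itself, was at 2806 and 2344 CPM in control KD and 2490 and 1970 CPM in PSME4 KD (−0.21, SE 0.21). SRXN1, the sulfiredoxin that repairs over-oxidised peroxiredoxins, was at 154 and 199 CPM in control KD and 190 and 232 CPM in PSME4 KD (0.26, SE 0.20). The reductase and its substrate thus had fold changes of opposite sign, neither past the threshold. For SRXN1, 42.5% of the 50-base windows of the coding sequence are shared with an overlapping GENCODE gene, so its counts are uncertain. Of 23 tested peroxiredoxins, other thioredoxin genes, methionine sulphoxide reductases and superoxide dismutases, none passed by edgeR, DESeq2 or limma voom, and 9 reached an edgeR p under 0.05 before adjustment, as did 26.2% of all genes tested. The smallest p-values there belonged to MSRA on chromosome 8 (−0.80, SE 0.29), SELENOW (0.57, SE 0.21), MSRB2 (0.59, SE 0.22) and the thioredoxin inhibitor TXNIP (0.66, SE 0.25), of which TXNIP passed after the GC correction (0.75, adjusted p = 0.0353, edgeR).

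The aldo-keto reductases and NQO1, which reduce quinones, aldehydes and ketones, were among the most abundant transcripts of the programme. NQO1, the quinone reductase often used to read NRF2 activity, was at 2202 and 1873 CPM in control KD and 2471 and 2667 CPM in PSME4 KD (log2 fold change 0.33, SE 0.20, adjusted p = 0.298, edgeR). Both PSME4 KD libraries were above both control KD libraries, and the difference did not pass. AKR1B10, a reductase of retinal and lipid aldehydes, was at 5473 and 4952 CPM in control KD and 6540 and 5915 CPM in PSME4 KD, again without overlap (0.26, SE 0.21). Of the 50-base windows of the AKR1B10 coding sequence 28.5% also occur in other genes, and 19.8% in AKR1B15, so its counts are uncertain. The carbonyl reductase CBR1 was at 85.7 and 88.6 CPM in control KD and 100.03 and 90.0 CPM in PSME4 KD (0.13, SE 0.19). Its relative CBR3 was low, at 6.83 and 3.78 CPM in control KD and 2.43 and 2.82 CPM in PSME4 KD, or 123 and 80 counts in all. CBR3 had a log2 fold change of −1.01 (SE 0.35, adjusted p = 0.0618, edgeR) and was at −0.53 without control KD 1, and after the GC correction it passed (−1.23, adjusted p = 0.0182, edgeR).

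AKR1C1, AKR1C2 and AKR1C3 are neighbouring genes on chromosome 10 whose products reduce steroids and prostaglandins. AKR1C3 was at 4470 and 3440 CPM in control KD and 3662 and 3223 CPM in PSME4 KD, and AKR1C2 at 3050 and 3634 CPM in control KD and 3075 and 3552 CPM in PSME4 KD. In both genes the groups overlapped (log2 fold changes −0.20, SE 0.21, and −0.01, SE 0.21). AKR1C1 was at 739 and 712 CPM in control KD and 1008 and 1065 CPM in PSME4 KD, without overlap and with little spread within either group. Its log2 fold change of 0.51 (SE 0.19) did not pass by edgeR (adjusted p = 0.0850) but did by DESeq2 (adjusted p = 0.0395) and after the GC correction (0.65, adjusted p = 0.0266, edgeR), and it lay between 0.49 and 0.55 whichever library was left out. These counts are uncertain, because 51.6% of the 50-base windows of the AKR1C1 coding sequence also occur in AKR1C2, and how reads that fit both were assigned is not stated. AKR1C1 took 19.5% and 16.4% of the counts of the pair in control KD 1 and 2 and 24.7% and 23.1% in PSME4 KD 1 and 2. The 3 genes together held 0.811% and 0.769% of all counts in control KD and 0.775% and 0.805% in PSME4 KD.

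HMOX1, FTL and FTH1 break down heme and store the iron that is released. HMOX1, heme oxygenase, was at 169 and 156 CPM in control KD and 212 and 224 CPM in PSME4 KD, without overlap (log2 fold change 0.42, SE 0.19, adjusted p = 0.153, edgeR). FTL, the ferritin light chain, was at 12832 CPM in control KD 1, 6861 CPM in control KD 2, 8307 CPM in PSME4 KD 1 and 12678 CPM in PSME4 KD 2. Each group thus held 1 high and 1 low library, and the difference within groups was larger than that between them (0.09, SE 0.25). FTH1, the heavy chain, was at 4846 and 3425 CPM in control KD and 4723 and 3967 CPM in PSME4 KD (0.07, SE 0.22). The ratio of FTL to FTH1 counts was 2.648 and 2.003 in control KD and 1.759 and 3.196 in PSME4 KD. FTL changed sign between the fits without control KD 1 (0.61) and without control KD 2 (−0.28). Processed pseudogenes share 77.8% of the 50-base windows of the FTH1 coding sequence and 31.9% of those of FTL.

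Of 27 other tested genes of heme and iron handling, 2 rose, 1 fell and 24 did not pass, a share called of 11.1%, beside 10.6% of all genes tested. BLVRB, which reduces biliverdin and flavins, was at 83.6 and 104 CPM in control KD and 209 and 140 CPM in PSME4 KD (log2 fold change 0.89, SE 0.21). The heme synthesis enzymes went in opposite directions, with UROD up by 0.96 (SE 0.24), from 13.5 and 13.8 to 31.7 and 21.5 CPM, and UROS down by 0.74 (SE 0.20), from 67.7 and 55.1 to 37.2 and 36.5 CPM. PCBP2, an RNA-binding protein that also carries iron, was at 0.55 (SE 0.19) and did not pass by edgeR (adjusted p = 0.0645), but did by DESeq2 (adjusted p = 0.0266), with library size as the only scaling and with the GC correction and replicate block together. After the GC correction BLVRB did not pass (0.63), and in fits with 1 library left out BLVRB and UROD passed only without PSME4 KD 2 and UROS in none. BLVRB was at 0.58 without PSME4 KD 1.

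Enzymes that handle foreign compounds and the pumps that export their conjugates gave no call among 6 NRF2 targets. Over all genes tested 10.6% were called, so no call among so few genes does not stand out. EPHX1, the microsomal epoxide hydrolase, came closest, at 226 and 164 CPM in control KD and 278 and 307 CPM in PSME4 KD (log2 fold change 0.59, SE 0.20, adjusted p = 0.0580, edgeR). It passed by limma voom, with library size as the only scaling and with a stricter filter on counts, and not after the GC correction (0.38), and it moved to 0.84 when control KD 1 was left out and to 0.38 when control KD 2 was. ALDH3A1, an aldehyde dehydrogenase, was at 403 and 385 CPM in control KD and 476 and 431 CPM in PSME4 KD (0.20, SE 0.19). UGDH, which makes the sugar donor for glucuronidation, was at 1044 and 1287 CPM in control KD and 1042 and 1006 CPM in PSME4 KD (−0.19, SE 0.20). The cytochrome CYP4F11 was at 23.1 and 21.4 CPM in control KD and 14.2 and 18.4 CPM in PSME4 KD (−0.45, SE 0.23). None of these 4 genes overlapped between groups, as did not 55.0% of all genes tested, and none passed. With the GC correction and replicate block together CYP4F11 did pass, lower in PSME4 KD (−0.60, adjusted p = 0.0412, edgeR). The groups barely separated in UGDH, at 1044.36 CPM in control KD 1 against 1042.32 CPM in PSME4 KD 1. Both exporters overlapped: ABCC2 was at 554 and 593 CPM in control KD and 558 and 817 CPM in PSME4 KD (0.26, SE 0.21, and −0.01 without PSME4 KD 2), and ABCC3 was at 529 and 366 CPM in control KD and 394 and 517 CPM in PSME4 KD (0.02, SE 0.21). OSGIN1, an oxidative stress response gene, was too low to judge, with 60 counts over the control libraries and 68 over the PSME4 KD libraries (−0.21, SE 0.38).

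Among 38 other tested reductases, dehydrogenases, cytochromes and exporters, 1 rose, 3 fell and 34 did not pass, a share called of 10.5%, beside 10.6% of all genes tested. The mitochondrial aldehyde dehydrogenase ALDH2 rose by 0.65 (SE 0.20), from 72.1 and 76.3 to 135 and 98.9 CPM. CYP1B1, a cytochrome induced through the aryl hydrocarbon receptor, fell by 1.27 (SE 0.24), from 20.4 and 27.9 to 10.4 and 9.71 CPM, and kept its call without control KD 1 and without PSME4 KD 2. The reductase DHRS2 fell by 2.69 (SE 0.56), but its counts were only 40 and 15 in control KD and 7 and 4 in PSME4 KD. CYP4F2, a close relative of CYP4F11, fell by 1.55 (SE 0.51), from 36 counts over the control libraries to 16 over the PSME4 KD libraries. DHRS2 kept its call only without control KD 2 and was at −1.81 without control KD 1, and CYP4F2 in none of the fits with 1 library left out. ALDH2 lost its call without each library and was at 0.42 without PSME4 KD 1.

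Among the genes that control NRF2, those called were 2 of its DNA-binding partners, a KEAP1-binding peptidase and a ubiquitin ligase receptor, while NFE2L2 and KEAP1 did not pass. Of 23 tested genes 2 rose, 2 fell and 19 did not pass, a share called of 17.4%, beside 10.6% of all genes tested. NFE2L2 was at 194 and 297 CPM in control KD and 358 and 343 CPM in PSME4 KD, without overlap (log2 fold change 0.51, SE 0.21, adjusted p = 0.109, edgeR), and its value was 0.24 with control KD 1 left out and 0.86 with control KD 2 left out. With the GC correction and replicate block together NFE2L2 passed (0.59, adjusted p = 0.0232, edgeR), and with either of them alone it did not. KEAP1 was at 25.0 and 16.5 CPM in control KD and 19.7 and 15.2 CPM in PSME4 KD, with overlap (−0.25, SE 0.24). SQSTM1, which sequesters KEAP1, was at 322 and 226 CPM in control KD and 334 and 234 CPM in PSME4 KD (0.05, SE 0.21). BACH1, a repressor that competes with NRF2 at its elements, was at 9.60 and 16.8 CPM in control KD and 16.7 and 15.9 CPM in PSME4 KD (0.31, SE 0.26), and its value was 0.77 with control KD 2 left out and −0.04 with control KD 1 left out.

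The small MAF proteins, which NRF2 and BACH1 both need to bind DNA, differed among themselves. MAFK was at 69.5 and 61.7 CPM in control KD and 20.7 and 37.0 CPM in PSME4 KD, a 2.27-fold decrease (log2 fold change −1.18, SE 0.23, adjusted p = 0.00167, edgeR). MAFF was low and fell 4.14-fold (−2.05, SE 0.44, adjusted p = 0.00385, edgeR), from 40 and 30 counts in control KD to 11 and 11 counts in PSME4 KD. MAFG was at 38.7 and 36.0 CPM in control KD and 32.6 and 38.6 CPM in PSME4 KD, with overlap (−0.07, SE 0.21). MAFF and MAFK also passed after the GC correction, at −2.27 and −1.39. MAFK kept its call only without PSME4 KD 2 (−1.64), with −0.82 without PSME4 KD 1, and MAFF lost its call without each library in turn, with values between −2.24 and −1.83. The difference between MAFG and either of the others was not tested.

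DPP3, a peptidase that can bind KEAP1, rose by 0.82 (SE 0.24, adjusted p = 0.0285, edgeR), from 10.99 and 11.95 CPM in control KD to 23.1 and 17.6 CPM in PSME4 KD. DCAF11, a substrate receptor of a cullin ligase that can take NRF2 as its substrate, rose by 0.82 (SE 0.22, adjusted p = 0.0184, edgeR), from 20.8 and 17.2 CPM to 33.2 and 33.7 CPM. Both lost their call whichever library was left out, and DPP3 did not pass after the GC correction (0.57).

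**Figure D4:**
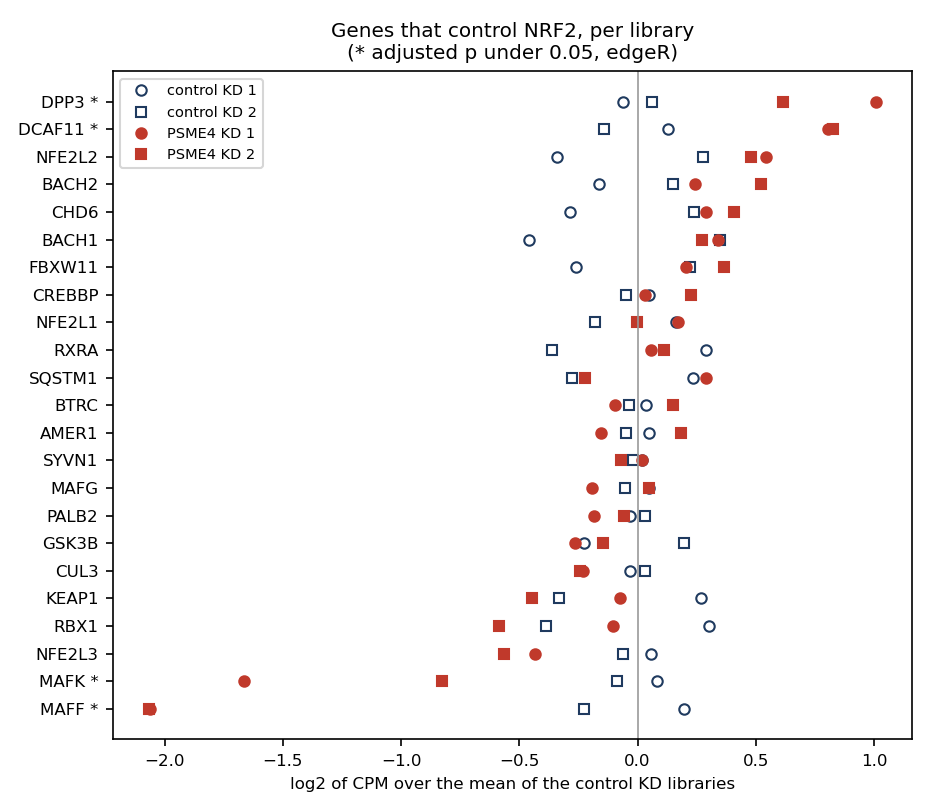
Genes that control NRF2, each library as log2 of its CPM over the mean of the control KD libraries (horizontal axis), ordered by fold change. Open symbols are control KD, filled symbols PSME4 KD, circles replicate 1 and squares replicate 2, and asterisks mark called genes. MAFF and MAFK lie to the left and DPP3 and DCAF11 to the right, and the other small MAF gene, MAFG, lies near 0.

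Within the programme, levels ran over a wide range once divided by transcript length. On the scale of CPM per kilobase of the principal GENCODE 29 transcript, mean control KD levels ran from 1.16 for OSGIN1 to 11215 for FTL. FTH1 (3365), AKR1B10 (3278) and TXN (2963) followed FTL on this scale, and the ranges of their control KD libraries overlapped, so their order is not resolved. NQO1 was at 700 and TKT at 233 CPM per kilobase in control KD. The level per length depends on which transcript is taken, most of all for AKR1C1, whose principal transcript is given as 6705 bases long with a coding part of 969 bases.

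GC content was set beside these results. Across the 31 genes Spearman's rho between the GC content of the transcript and the fold change was 0.25 (Pearson's r 0.12). With the difference of control KD 2 over control KD 1 rho was −0.52, and with that of PSME4 KD 2 over PSME4 KD 1 it was 0.16, all as a description over genes that share libraries. Over 13150 genes the first of these was 0.40. With each library's counts corrected for GC content, 3 of the 31 genes were higher (TKT, TRIM16L and AKR1C1) and 2 were lower (PIR and CBR3), beside 4.17% and 5.18% of all genes tested and 9.35% in either direction. SLC7A11, at 35.4% GC the poorest of the 31 in GC, moved from −0.02 to 0.33 (adjusted p = 0.230, edgeR), and TKT, at 56.0% GC, from 0.96 to 0.75 (adjusted p = 0.0160, edgeR). The median of the 31 genes was 0.0077 after the correction.

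**Figure D5:**
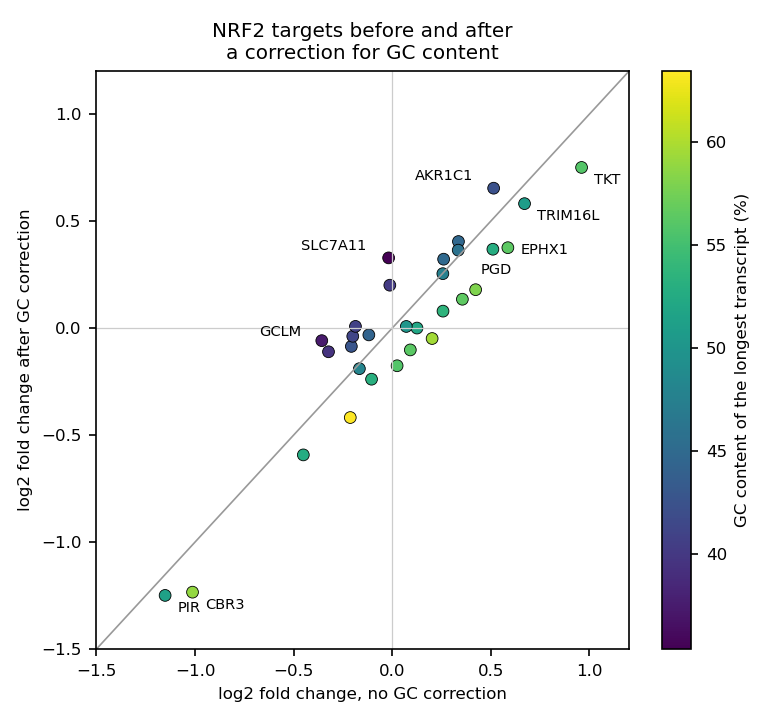
Log2 fold change of the 31 NRF2 targets before (horizontal axis) and after (vertical axis) the GC correction, coloured by the GC content of the longest transcript, with the line of equality. Genes with the lowest GC content, such as SLC7A11 and GCLM, lie above the line and those with the highest, such as ALDH3A1, lie below it.

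In the authors' deposited table the same 3 genes of the 31, TKT, PIR and TRIM16L, had an adjusted p under 0.05, and none did by the second adjustment given there. Over all 15037 genes of the authors' deposited table the counts were 972 (6.46%) and 98 (0.652%). The authors' deposited table gives log2 values of control KD over PSME4 KD of −0.97 for TKT, 1.15 for PIR and −0.68 for TRIM16L, the opposite orientation to the fold changes above.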

How the data were processed

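Whole-number counts per gene were taken as deposited by the authors, without normalisation. The submitters' processing notes name hg38 and the tools cutadapt, STAR and DESeq2. Which counter, strand setting and annotation made them is not stated in any source used. The authors also deposited signal values (counts divided by 1 size factor per library), log2 values (regularised log, not tested here), and, per the file headers, a log2 fold change with p-values. No gene had under 6 counts in its highest library.

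The analysis ran in R 4.3.3 on edgeR 4.0.16 (filterByExpr, TMM, glmQLFit, glmQLFTest, group as the only term, 2 residual degrees of freedom) on all 4 libraries, with Benjamini-Hochberg adjustment over 13497 genes. The SE is the log2 fold change over the square root of F. SDs are over 2 libraries. Alternatives were DESeq2 1.42.0, limma voom (limma 3.58.1), other scalings and filters, the replicate block, each library left out, and a lowess GC correction (span 0.4, longest GENCODE 29 transcript, known for 97.4% of genes). Sharing of 50-base windows used GENCODE 29 transcripts, coordinates RefSeq on GRCh38.p14. Members, gene lists and alternatives were chosen with earlier results of these data known. Named genes are all 31 members, then per wider list up to 4 with the smallest p, plus NFE2L2, KEAP1, MAFG, BACH1 and SQSTM1; 1 further gene of the rule is not reported here.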

Additional observations from a re-analysis of the deposited data

How the results depend on the processing

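Direction and side of the threshold stayed as reported for all 31 genes with DESeq2's size factors in edgeR and with no filter on counts. No call among TKT, PIR and TRIM16L was lost by DESeq2, by limma voom, with library size as the only scaling or after the GC correction. With 1 library left out, TKT was at 0.78 to 1.15, PIR at −1.48 to −0.72 and TRIM16L at 0.51 to 0.86. None of these fits, which leave 1 library in a group, kept every one of these calls. Calls over all genes tested also fell in each such fit, far below the 1426 of the fit on all 4 libraries. A call lost in this way is thus not particular to the genes named here. The reason for this loss of calls was not tested. At an adjusted p of 0.10, 5 of the 31 were higher and 2 lower. With the GC correction 2 were lower, and 3 with the GC correction and the replicate block together, CYP4F11 being added. No share of all genes is given for 0.10 or for fits with the block. Those counts therefore cannot be read as particular to the 31 genes. The median over the 31 ranged from −0.01 to 0.21 with 1 library left out. Over all 6 wider lists 11 genes were higher and 9 lower; at 0.10 there were 20 and 16, by DESeq2 4 lower (it gave MAFF, GSTM2, DHRS2 and CYP4F2 no adjusted p), with at least 50 counts in 2 libraries 5 lower, with the GC correction and block 18 higher, and with 1 library left out 0 to 5 higher and 0 to 2 lower. For these lists, the 11 higher and 9 lower stand beside 4.56% higher and 6.0% lower of all genes tested. The 4 lower by DESeq2 stand beside 5.45% lower of its tested genes. The number of genes tested is given above for each list. For the lists too, no share of all genes is given at 0.10, with the stricter filter or with the block. The list counts in these settings thus cannot be read as particular to the lists. PSME4 was at −1.17 to −0.97 with 1 library left out. Signs that differed from those reported, all for genes that did not pass, were SLC7A11 and AKR1C2 with library size as the only scaling (0.022 and 0.030) and, with the GC correction alone and then with the block, SLC7A11 (0.33, 0.33), AKR1C2 (0.20, 0.19), FTL (−0.10, −0.092), ALDH3A1 (−0.049, −0.045), UGDH (0.0080, 0.0090), ABCC3 (−0.18, −0.18) and SQSTM1 (−0.17, −0.19), and CBR1 with both (−0.0019). With 1 library left out signs also changed, within ranges of −0.26 to 0.040 for GCLC, −0.15 to 0.13 for SLC7A11, −0.42 to 0.31 for GPX2, −0.14 to 0.13 for AKR1C2, −0.28 to 0.61 for FTL, −0.15 to 0.34 for FTH1, −0.011 to 0.51 for ABCC2, −0.21 to 0.31 for ABCC3, −0.43 to 0.052 for OSGIN1, −0.51 to 0.079 for KEAP1, −0.17 to 0.051 for MAFG, −0.041 to 0.77 for BACH1 and −0.22 to 0.33 for SQSTM1. The cause was not tested. No label says whether replicate numbers pair the libraries. The correlation of replicate 2 minus 1 between the groups was −0.043 over 8748 genes, which shows no shared shift but cannot decide pairing. With the replicate block alone the 31 genes gave 3 higher, EPHX1 being added (0.60, adjusted p = 0.0396, edgeR), and 1 lower. With 2 libraries a group, single libraries weigh heavily, such as control KD 1 for PIR and either control KD library for NFE2L2 and BACH1. CBR3, OSGIN1, MAFF, GSTM2, DHRS2 and CYP4F2 rest on few counts.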
